A study of Mus musculus with 4 samples.

Results

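The smooth muscle type contractile genes examined here are 10 genes of the actin filament apparatus and its transcriptional control. They are the actin gene Acta2, the calponin family genes Tagln, Cnn1 and Cnn2, the myosin light chain gene Myl9, the tropomyosin genes Tpm1, Tpm2 and Tpm4, the caldesmon gene Cald1 and the transcription factor gene Srf. They were taken by name, and all 10 were found among the 54532 genes of the deposited count table. The libraries came from the mouse podocyte cell line MPC5, with 2 libraries of cells given IL-12 (400 ng/ml for 6 h) and 2 control libraries of cells given saline. All libraries were of the same conditionally immortalized line, which grows with interferon-γ and was differentiated without it, so that no comparison covers podocytes of an animal. The sources used here do not give whether replicates were separate cultures, and p-values then measure only the spread between these libraries, which may be technical. Total counts ran from 18355379 to 20098012 per library, and a floor of 3 counts relative to these totals corresponds to 0.149 to 0.163 CPM (counts scaled to a common library size), counting error only.

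Smooth muscle cells contract through actin filaments decorated with tropomyosin, caldesmon and calponin, along which myosin moves once its regulatory light chain is phosphorylated. Many of the genes that encode these proteins are controlled by serum response factor, the product of Srf, which binds a short A- and T-rich DNA element called the CArG box. Its myocardin-related coactivators are held in the cytoplasm by monomeric actin, and its ternary complex partners respond to ERK. Podocytes carry a contractile actin network in their foot processes, and cultured podocytes form stress fibres.

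The label was checked against genes that mark mature smooth muscle. The smooth muscle myosin heavy chain gene Myh11 had 4, 4, 3 and 2 counts (control 1, control 2, IL-12 1 and IL-12 2, the order used throughout). The enteric smooth muscle actin gene Actg2 had 11, 9, 8 and 7 counts, and the coactivator gene Myocd had 0 counts in each library, which allows up to 0.149 to 0.163 CPM. The desmin gene Des was near 2 CPM in both groups. Only the smoothelin gene Smtn of this group was abundant, at 318 ± 3.42 CPM (SD, n = 2) in the control group. The 10 genes are therefore described by name, and not as a smooth muscle cell state. Of 10 podocyte markers, 5 passed the filter on low counts, while Nphs1, Tcf21 and Ptpro had 0 to 1 counts in every library. Other genes of the podocyte list were abundant in the control group, with 479.6 ± 13.7 CPM for Synpo, 277 ± 3.92 CPM for Cd2ap and 606 ± 3.85 CPM for Nes (SD, n = 2).

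The members fell into an abundant and a scarce set. FPKM values (deposited counts divided by gene length and library depth) were used for levels between genes. In the control group Tpm1 was the highest, with 424 and 430.2 FPKM, followed by Tpm4 with 303 and 307 FPKM. Cnn2 had 213 and 213 FPKM and Cald1 had 193 and 191 FPKM. Acta2 was lower, at 76.8 and 76.2 FPKM, and Srf had 28.8 and 29.7 FPKM. A gap of several-fold then separated these genes from Tagln (2.97 and 4.32 FPKM), Myl9 (0.998 and 1.96 FPKM), Cnn1 (1.06 and 1.16 FPKM) and Tpm2 (0.163 and 0.164 FPKM). In the control group the levels of Myl9 and Cnn1 overlapped, and those of all other neighbours in this order did not. The order by group means was the same in the IL-12 group. The deposited length of Tpm1 and Cald1 joins the exons of 21 and 18 annotated transcripts. With the longest transcript as the length, an alternative chosen after seeing the data, Cald1 moved to place 2, ahead of Tpm4 and Cnn2, and the other genes kept their relative order. Tpm2 did not pass the filter on low counts (9, 9, 9 and 8 counts), so 9 of the 10 members were tested.

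**Figure D1:**
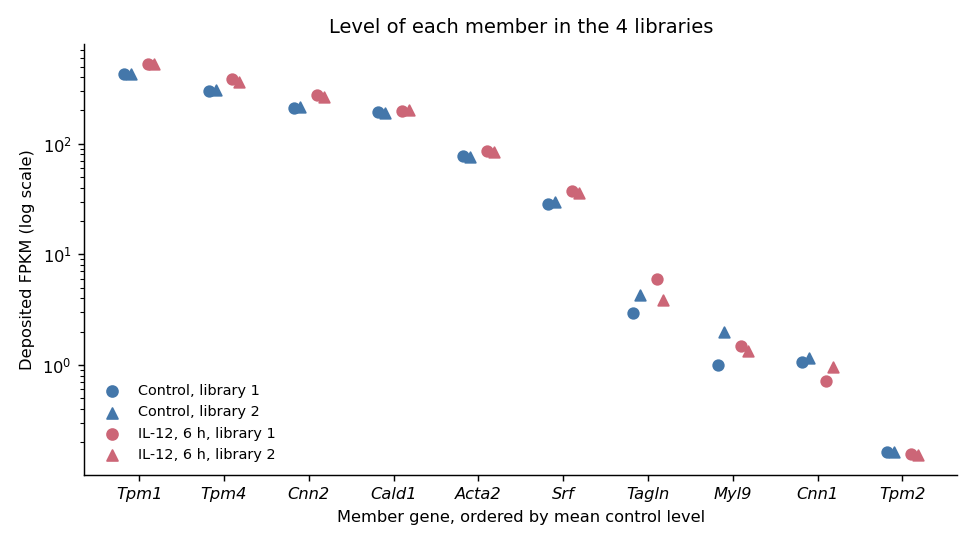
Deposited FPKM on a log axis for each member in each library, with 2 control and 2 IL-12 libraries per gene. Tpm1, Tpm4, Cnn2, Cald1, Acta2 and Srf lie above 28 FPKM in every library, and Tagln, Myl9, Cnn1 and Tpm2 lie below 7 FPKM.

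Incubation with IL-12 was accompanied by small increases of the abundant members. Of the 9 tested, 6 were higher at an adjusted p below 0.05 in the edgeR quasi-likelihood test with Benjamini-Hochberg adjustment, 0 were lower and 3 did not pass. Of all 14095 genes tested, 30.5% passed in either direction, 16.1% higher and 14.4% lower. The 6 genes were Cnn2, Srf, Tpm1, Tpm4, Acta2 and Cald1, with changes of 1.27, 1.253, 1.24, 1.23, 1.10 and 1.05-fold, and they are also the 6 abundant members. Among the 4943 genes of at least 50 CPM on average, a limit chosen after seeing the data, 27.6% were higher and 21% were lower. The median log2 fold change was 0.30 over the 9 members, 0.0214 over the genes of at least 50 CPM and -0.0022 over all genes tested. No member changed over 2-fold, the study's own criterion, which 1.61% of all genes passed together with the adjusted p. In the 6 genes both IL-12 libraries lay above both control libraries, which was the case for 31.7% of all genes tested. Since reads come from whole cultures, a change in the share of cells that express a gene and a change in RNA per cell cannot be told apart. The increases of Cnn2, Srf, Tpm1 and Tpm4 passed in all 12 alternative settings, whereas those of Acta2 and Cald1 were lost in 4 and 8 of them. With scaling by total counts only, the split of all genes past the adjusted p was 1765 higher and 2590 lower, against 2267 and 2030, and 4 members passed.

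**Figure D2:**
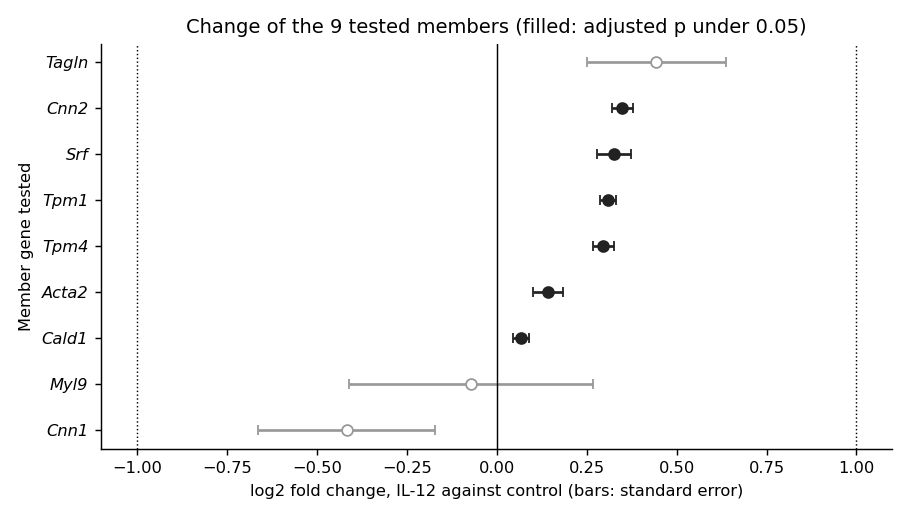
log2 fold change (IL-12 against control) of the 9 tested members, with bars for the standard error and dotted lines at a 2-fold change. Cnn2, Srf, Tpm1 and Tpm4 cluster between 0.30 and 0.35 with short bars, Acta2 and Cald1 are nearer to 0, and Tagln, Myl9 and Cnn1 have wide bars.

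Srf encodes the transcription factor itself. Its counts were 1578, 1618, 2131 and 1881, which scaled to 83.3 and 85.7 CPM in the control group and 108 and 104 CPM in the IL-12 group. The groups did not overlap. Srf rose by 0.33 on the log2 scale (standard error, SE, 0.05, edgeR quasi-likelihood adjusted p = 3.04e-05). Srf (ENSMUSG00000015605) lies on chromosome 17 of GRCm38 from 46548329 to 46556175, on the minus strand.

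The CArG box was searched for, because the factor encoded by Srf acts through it. The search covered the 250 bases before the RefSeq transcription starts available for the members. The box reads as 2 C, 6 bases that are A or T, and 2 G, and it is its own reverse complement, so that a single search covers both strands. RefSeq (GRCm38.p6) gave 10 windows for 9 members, and Tagln had none. An exact box was found for Srf, Cnn2 and Myl9, beside 1.47% of all 32851 windows. Srf had 2 boxes separated by 10 bases, and 2 or more boxes were found in 0.0183% of all windows. A box with a single G or C in the core was found in Acta2 (2 matches) and Myl9 (1 match), beside 7.24% of all windows. The sequences of these 4 genes are shown because they place the element in genes with very different levels. Each is given 5′ to 3′ on the strand of the gene, ends at the base before the start, and has exact and near CArG boxes in capitals.
Srf, chr17:46556163-46556412, minus strand: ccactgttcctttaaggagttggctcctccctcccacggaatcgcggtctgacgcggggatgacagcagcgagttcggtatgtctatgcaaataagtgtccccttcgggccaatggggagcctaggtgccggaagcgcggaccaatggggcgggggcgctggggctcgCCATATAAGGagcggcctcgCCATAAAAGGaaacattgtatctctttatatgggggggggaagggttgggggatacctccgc
Cnn2, chr10:79988350-79988599, plus strand: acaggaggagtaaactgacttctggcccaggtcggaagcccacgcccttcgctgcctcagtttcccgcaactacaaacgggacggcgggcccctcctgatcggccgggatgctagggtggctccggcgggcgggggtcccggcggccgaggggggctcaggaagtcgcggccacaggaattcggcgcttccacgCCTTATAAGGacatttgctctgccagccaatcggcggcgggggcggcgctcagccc
Myl9, chr2:156775214-156775463, plus strand: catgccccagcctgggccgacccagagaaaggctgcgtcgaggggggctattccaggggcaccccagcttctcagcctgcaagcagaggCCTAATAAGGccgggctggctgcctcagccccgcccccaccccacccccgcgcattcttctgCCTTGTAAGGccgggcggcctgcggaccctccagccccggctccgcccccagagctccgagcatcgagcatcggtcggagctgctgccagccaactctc
Acta2, chr19:34255374-34255623, minus strand: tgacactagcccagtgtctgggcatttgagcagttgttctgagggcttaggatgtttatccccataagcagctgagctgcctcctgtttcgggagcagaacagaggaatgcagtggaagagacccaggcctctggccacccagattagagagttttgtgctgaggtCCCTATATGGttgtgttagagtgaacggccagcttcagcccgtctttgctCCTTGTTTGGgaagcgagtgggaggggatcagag

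The exact boxes of Srf began 82 and 62 bases before the start, that of Cnn2 56 bases and that of Myl9 161 bases. The near boxes began 99 bases before the start in Myl9 and 84 and 34 bases before it in Acta2. The MCAT element (CATTCC, or GGAATG on the other strand), which TEAD factors bind, was found in Acta2, Tpm1 and Cald1, beside 12.6% of all windows, and did not overlap a CArG box in any window. Srf and Cnn2, both with an exact box, rose by 1.253 and 1.27-fold. Myl9, also with an exact box, had 22, 43, 34 and 28 counts and a log2 fold change of -0.07 (SE 0.34). At these counts a rise like those of Srf and Cnn2 could not be told from no change. Tpm1 and Tpm4 rose by 1.24 and 1.23-fold with no exact or near box in these windows. A single window was searched for Tpm1, which has 16 annotated starts of coding transcripts, so boxes at its other starts would be missed. Of the 9878 tested genes with a window, 142 held an exact box, of which 33 (23.2%) were higher and 21 (14.8%) lower, beside 17.5% and 15.9% of all such genes. A match is a description of letters only, and no binding was measured.

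**Figure D3:**
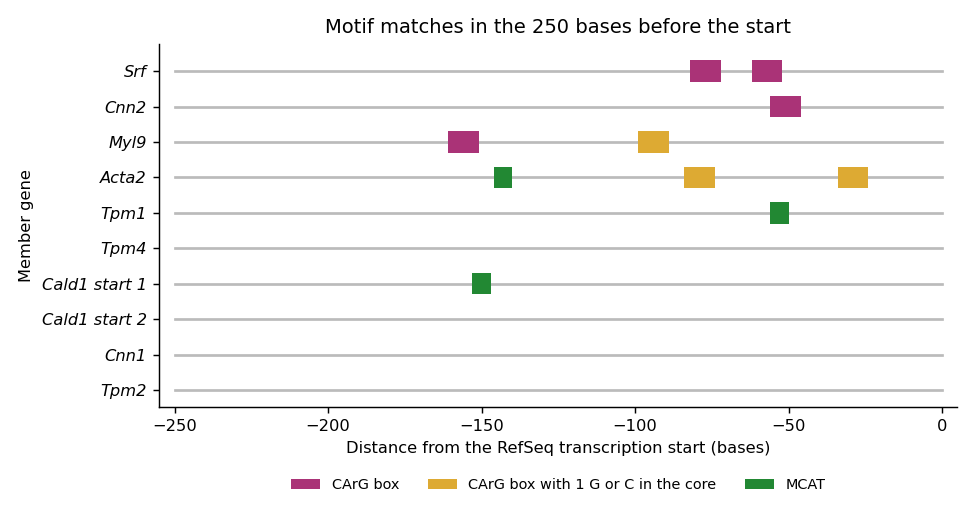
Positions of motif matches in the 250 bases before the RefSeq start of 9 members, as distance from the start in bases. Exact CArG boxes lie in Srf (2), Cnn2 and Myl9, near boxes in Myl9 and Acta2, and MCAT elements in Acta2, Tpm1 and Cald1 at its upstream start.

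Acta2 encodes the smooth muscle α-actin that is used as a marker of myofibroblasts. Its counts were 2593, 2558, 2998 and 2699, and it went from 136 ± 0.946 CPM to 150.4 ± 1.67 CPM (SD, n = 2). The groups did not overlap, and the log2 fold change was 0.14 (SE 0.04, edgeR quasi-likelihood adjusted p = 0.0115). The adjusted p was 0.0663 with scaling by total counts only, 0.0556 with the DESeq2 Wald test, 0.0793 without control library 2 and 0.0792 without IL-12 library 1. Of annotated 50-base stretches of Acta2, 0.326% also occur in another gene, so that its reads could rarely be taken for those of another actin. Acta2 lies on chromosome 19 from 34241090 to 34255336.

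Within the actin family, Acta2 was a minor gene beside the cytoplasmic actins. Acta2 made up 4.63% and 4.71% of actin FPKM without IL-12, and its share was lower in both libraries with IL-12, at 4.11% and 4.14%. Actb, which encodes β-actin, rose from 1860 ± 10.2 CPM to 2399 ± 43.3 CPM (SD, n = 2), or on the log2 scale by 0.37 (SE 0.02, edgeR quasi-likelihood adjusted p = 1.01e-09). Actg1, which encodes γ-actin, rose by 0.30 (SE 0.02, edgeR quasi-likelihood adjusted p = 3.09e-08). The count ratio of Acta2 to Actb within a library, which does not depend on scaling, was 0.0733 and 0.0732 without IL-12 and 0.0624 and 0.0630 with it, so that Acta2 changed less than Actb. No permutation p is given, since with 2 libraries in each group the smallest two-sided exact value is 0.333. The sarcomeric actin genes were close to absent, with 7, 9, 8 and 16 counts for Acta1 and 0, 0, 0 and 1 for Actc1. Parts of Actb and Actg1 (9.12% and 37.4% of 50-base stretches) are shared with other genes, for Actg1 mostly the pseudogene Gm12715, and their counts are uncertain to that extent.

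Tropomyosins lie along the actin filament and set which myosins and severing proteins reach it. Tpm1 had 52151, 52618, 68136 and 61873 counts, or 2753 and 2788 CPM in the control group and 3444 and 3420.1 CPM in the IL-12 group. The groups were far apart beside the spread within each, with a log2 fold change of 0.31 (SE 0.02, edgeR quasi-likelihood adjusted p = 3.55e-09). Tpm4 had 668 and 675 CPM in the control group and 845 and 803 CPM in the IL-12 group, and its log2 fold change of 0.30 (SE 0.03, edgeR quasi-likelihood adjusted p = 3.14e-07) was within the error of that of Tpm1. Tpm3, a paralog that is no member, rose by 0.29 (SE 0.03, edgeR quasi-likelihood adjusted p = 8.7e-08).

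The proportions among the tropomyosins hardly moved while their sum rose. Tpm1 made up 50.4%, 50.5%, 50.3% and 51.0% of tropomyosin FPKM in the libraries, Tpm4 36.0%, 36.0%, 36.3% and 35.3%, and Tpm3 13.6%, 13.5%, 13.3% and 13.7%. For each of these genes the ranges of the groups overlapped or lay within 1 percentage point. Tpm2, the tropomyosin typical of smooth and slow skeletal muscle, was at 0.0147% to 0.0194% in all libraries. With the longest transcript as the length, the Tpm1 share in the control group was 61.1%. Counts per gene pool all isoforms, so that muscle and cytoplasmic isoforms of Tpm1, which come from the same gene by different promoters and exons, cannot be told apart here. No 50-base stretch of Tpm1 or Tpm2 occurs in another gene, against 15.7% for Tpm4, mostly in the pseudogene Gm7809, and 23.2% for Tpm3, in Tpm3-rs7. Tpm1 lies on chromosome 9 from 67022590 to 67049406 and Tpm4 on chromosome 8 from 72134975 to 72153142.

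**Figure D4:**
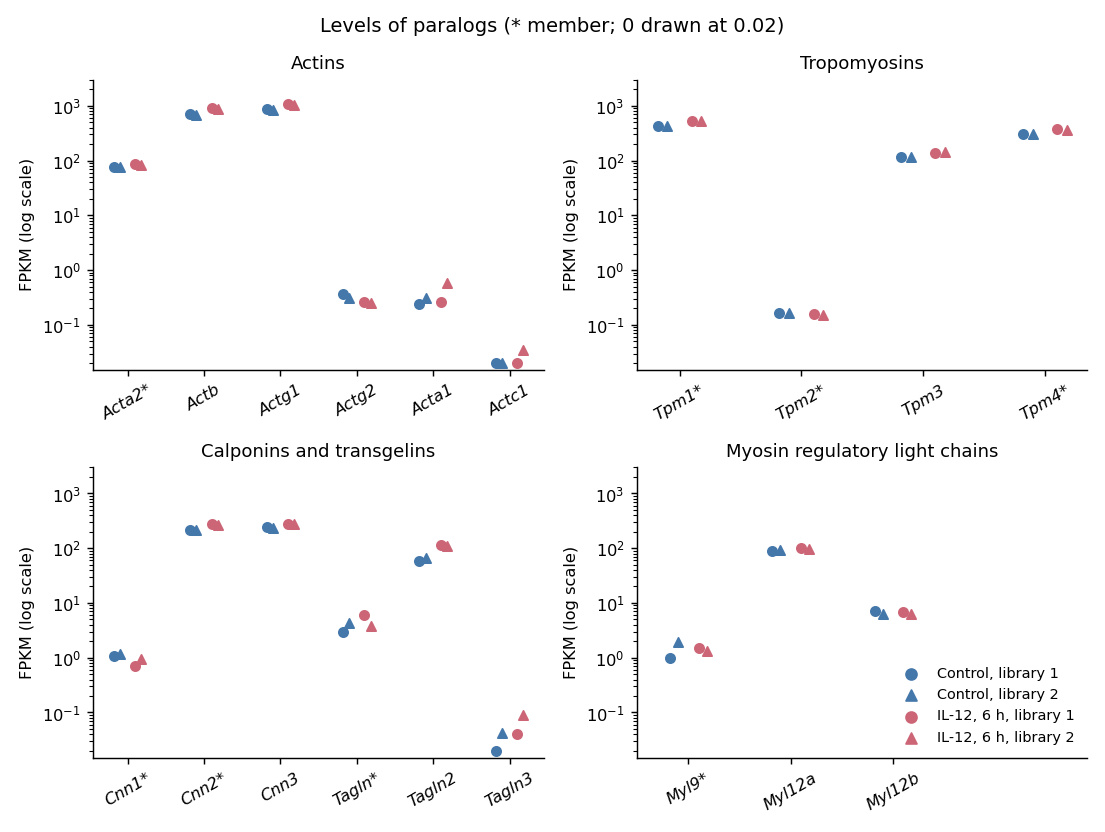
Deposited FPKM on a log axis for the members (marked with an asterisk) and their paralogs, in 4 panels for actins, tropomyosins, calponins with transgelins, and myosin regulatory light chains, with a point per library and values of 0 drawn at 0.02. Acta2, Tagln, Cnn1, Cnn2, Myl9 and Tpm2 lie below their most abundant paralogs in every library, and Tpm1 and Tpm4 are the highest tropomyosins.

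Caldesmon binds actin, tropomyosin and myosin and restrains the myosin ATPase. Cald1 (chromosome 6, 34598500 to 34775473) had 43955, 43465, 47495 and 44178 counts and was the second member by counts, but its change was the smallest of those that passed. It went from 2312 ± 12.2 CPM to 2421 ± 29.1 CPM (SD, n = 2), or on the log2 scale a change of 0.07 (SE 0.02, edgeR quasi-likelihood adjusted p = 0.0308). This call was lost in 8 of 12 alternatives, including each library left out in turn (adjusted p = 0.0528 to 0.135) and scaling by total counts only, where the log2 fold change was 0.03 (adjusted p = 0.431, from the same edgeR test). The count ratio of Tpm1 to Cald1 within a library was 1.19 and 1.21 in the control group and 1.44 and 1.40 in the IL-12 group, and that of Cnn2 to Cald1 was 0.226 and 0.227 against 0.285 and 0.267. Both ratios were higher in both IL-12 libraries, so that Cald1 rose less than Tpm1 and Cnn2 whatever the scaling. The smooth muscle and the non-muscle caldesmon come from this same gene and are pooled in its count.

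Calponins and transgelin are related actin-binding proteins, of which Cnn1 and Tagln mark smooth muscle and Cnn2 is found in many cell types. Cnn2 had 9926, 9878, 13510 and 11783 counts, or 524 and 523 CPM in the control group and 683 and 651 CPM in the IL-12 group. It had the largest change of the abundant members, a log2 fold change of 0.35 (SE 0.03, edgeR quasi-likelihood adjusted p = 4.81e-08). Cnn2 lies on chromosome 10 from 79988584 to 79996062.

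Cnn1 (chromosome 9, 22099216 to 22109630) went the other way in its values but did not pass. Its counts were 55, 60, 39 and 47, and both IL-12 libraries lay below both control libraries, as for 31.2% of all genes tested. The log2 fold change was -0.42 (SE 0.25, edgeR quasi-likelihood adjusted p = 0.227), and the smallest change detectable at these counts was not computed. It did not pass in any of the 12 alternatives, with log2 fold changes between -0.62 and -0.23.

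Tagln (chromosome 9, 45929619 to 45936058), which encodes SM22α, had 112, 162, 237 and 138 counts. IL-12 library 1 was above both control libraries, while IL-12 library 2 lay between them, so that the groups overlapped. The log2 fold change was 0.44 (SE 0.19, edgeR quasi-likelihood adjusted p = 0.0934). Single libraries decided this value, which was 0.08 without IL-12 library 1 (adjusted p = 0.859), 0.73 without IL-12 library 2 (adjusted p = 0.0313) and 0.74 without control library 2 (adjusted p = 0.000904, all from the same edgeR test). Tagln also overlaps Pcsk7, with 3514 counts over the libraries against 649 for Tagln, and the antisense gene Gm48529, with 241, both on the opposite strand. No source used here says that strand was used in counting, 58.3% of the 50-base stretches of Tagln occur in transcripts of another gene, and its counts are uncertain.

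Other calponin family genes that are no members carried most of this family's RNA. Cnn3 had 239.5 and 238 FPKM in the control group and 280.2 and 275 FPKM in the IL-12 group (log2 fold change 0.22, SE 0.03, edgeR quasi-likelihood adjusted p = 4.58e-06). Tagln2, named here after its values were seen, had 2304, 2554, 4695 and 4142 counts, a log2 fold change of 0.86 (SE 0.05, edgeR quasi-likelihood adjusted p = 9.94e-11), and passed in all 12 alternatives. Its share of the calponin and transgelin FPKM was 11.3% and 12.5% in the control group and 16.8% and 16.8% in the IL-12 group, beside 0.577% to 0.888% for Tagln in the 4 libraries.

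Myl9 (chromosome 2, 156775420 to 156781658) encodes the regulatory light chain of smooth muscle myosin, whose phosphorylation starts contraction. Its counts were 22, 43, 34 and 28, and both IL-12 libraries lay between the control libraries. The log2 fold change was -0.07 (SE 0.34, edgeR quasi-likelihood adjusted p = 0.905), and it was 0.49 without control library 2 (adjusted p = 0.49, from the same test), so that no direction can be given at these counts. Myl9 made up 1.03% to 1.94% of the regulatory light chain FPKM in the 4 libraries. Its paralog Myl12a, named after its values were seen, held 91.6% to 92.6% and had a log2 fold change of 0.11 (SE 0.03, edgeR quasi-likelihood adjusted p = 0.0188), which did not pass in 5 of 12 alternatives.

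The genes around the members were described by lists. Of 26 other smooth muscle contractile and SRF target genes, 24 were tested, of which 11 were higher, 4 were lower and 9 did not pass, with a median log2 fold change of 0.18. Over all genes tested 16.1% were higher and 14.4% lower, and over those of at least 50 CPM 27.6% and 21%. Actn1, the actin cross-linker α-actinin 1, rose from 572 ± 9.17 CPM to 869.9 ± 23.2 CPM (SD, n = 2), or on the log2 scale by 0.61 (SE 0.03, edgeR quasi-likelihood adjusted p = 2.03e-11). Smtn rose by 0.31 on the log2 scale (SE 0.03, edgeR quasi-likelihood adjusted p = 7.36e-07). Itga1, the collagen-binding integrin α1 chain, fell from 119 ± 5.18 CPM to 69.8 ± 6.02 CPM (SD, n = 2), or on the log2 scale a change of -0.77 (SE 0.06, edgeR quasi-likelihood adjusted p = 6.66e-09). Lmod1, a smooth muscle actin nucleator, had 68, 70, 37 and 42 counts and a log2 fold change of -0.80 (SE 0.24, edgeR quasi-likelihood adjusted p = 0.0139), which did not pass with the DESeq2 Wald test (adjusted p = 0.107) or without IL-12 library 1 (adjusted p = 0.132).

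Of 16 cytoplasmic actomyosin genes, 14 were tested, of which 12 were higher, 1 was lower and 1 did not pass, with a median log2 fold change of 0.21. The share higher was 16.1% over all genes tested and 27.6% over those of at least 50 CPM. Besides Actb, the largest changes were those of Zyx, a stress fibre and adhesion protein (log2 fold change 0.41, SE 0.03, edgeR quasi-likelihood adjusted p = 1.16e-08), and Tmod3, a pointed-end capping protein that binds tropomyosin (0.34, SE 0.04, edgeR quasi-likelihood adjusted p = 1.15e-06). The gene that was lower was Myh10, non-muscle myosin IIB, with a log2 fold change of -0.12 (SE 0.03, edgeR quasi-likelihood adjusted p = 0.00346). The summed level of the list was 12750 and 12690 CPM for the control libraries against 15330 and 14950 CPM for those with IL-12.

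Of 9 coactivators and partners of SRF, 7 were tested, of which 1 was higher, 2 were lower and 4 did not pass. Over all genes tested 16.1% were higher and 14.4% lower, and over those of at least 50 CPM 27.6% and 21%. The coactivator genes Mkl1 and Mkl2 (also named Mrtfa and Mrtfb) went from 92.7 ± 0.389 CPM to 81.4 ± 1.247 CPM and from 80.7 ± 2.87 CPM to 69.4 ± 2.89 CPM (SD, n = 2). Their log2 fold changes were -0.19 (SE 0.05, edgeR quasi-likelihood adjusted p = 0.00497) and -0.22 (SE 0.05, edgeR quasi-likelihood adjusted p = 0.00319). The call of Mkl1 was lost without IL-12 library 2 (adjusted p = 0.0505) and that of Mkl2 without IL-12 library 1 (adjusted p = 0.0886). Elk3, a ternary complex factor, had 1087, 1081, 1523 and 1485 counts and rose by 0.47 on the log2 scale (SE 0.05, edgeR quasi-likelihood adjusted p = 1.49e-06). Mkl1 and Elk3 overlap Sgsm3 and Cdk17 on the opposite strand, so that part of their reads could belong to those genes.

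Of 11 immediate early SRF targets, 10 were tested, of which 4 were higher, 1 was lower and 5 did not pass, beside 16.1% higher and 14.4% lower over all genes tested. Fosl1, which encodes the AP-1 protein Fra-1, had 499, 520, 1077 and 889 counts, a log2 fold change of 0.94 (SE 0.07, edgeR quasi-likelihood adjusted p = 9.08e-09), though it overlaps Ccdc85b on the opposite strand, which had 2902 counts over the libraries against 2985. Egr3 had 134, 114, 199 and 219 counts and rose by 0.75 (SE 0.14, edgeR quasi-likelihood adjusted p = 0.000512). Fos had 180, 200, 133 and 144 counts and a log2 fold change of -0.46 (SE 0.14, edgeR quasi-likelihood adjusted p = 0.0182), which did not pass in 4 of 12 alternatives, among them without control library 2 (adjusted p = 0.125) and without IL-12 library 1 (adjusted p = 0.187).

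Mylk, the light chain kinase of smooth muscle, had only 78, 77, 133 and 102 counts and a log2 fold change of 0.60 (SE 0.17, edgeR quasi-likelihood adjusted p = 0.0139), which did not pass with the DESeq2 Wald test (adjusted p = 0.114) or without IL-12 library 1 (adjusted p = 0.16).

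Striated muscle genes were mostly at the floor, with 6 of 20 tested. The exception was Tnnt2, cardiac troponin T, a protein that anchors the troponin complex to tropomyosin. Tnnt2 had 166, 223, 1001 and 856 counts and went from 10.3 ± 2.16 CPM to 49.0 ± 2.32 CPM (SD, n = 2), or on the log2 scale a change of 2.25 (SE 0.10, edgeR quasi-likelihood adjusted p = 1.01e-11). It was the only gene of the related lists past both 2-fold and the adjusted p, and it passed in all 12 alternatives. The other cardiac troponin genes were scarce, with 48, 63, 45 and 51 counts for Tnnc1, which did not pass the test, and 8, 6, 2 and 2 counts for Tnni3, which was not tested.

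**Figure D5:**
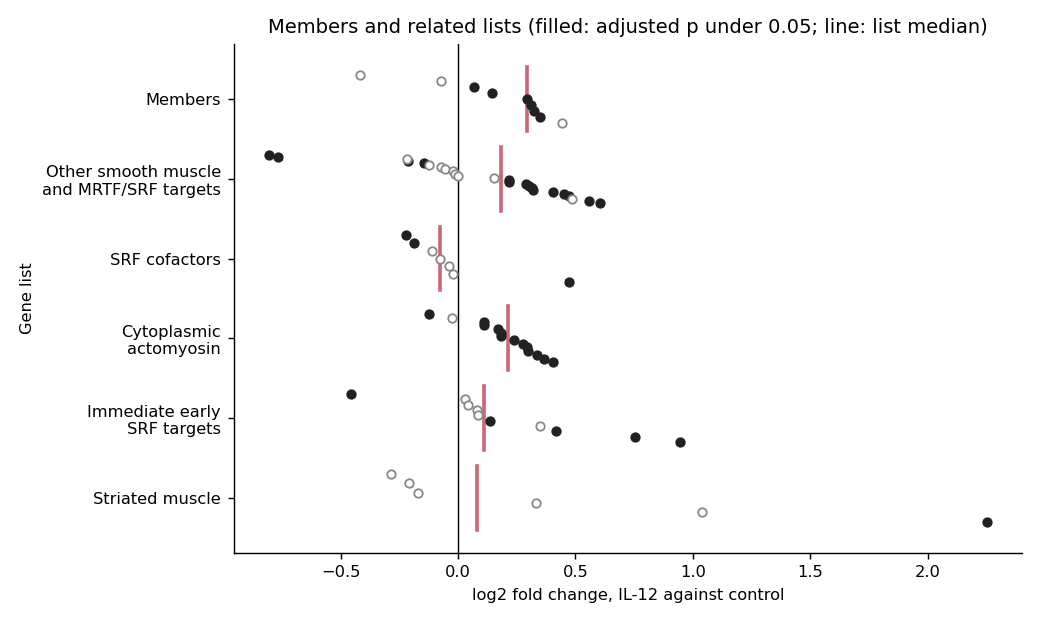
log2 fold changes (IL-12 against control) of the tested members and of the tested genes of 5 related lists, with filled points for an adjusted p below 0.05 and a line at each list's median. The medians of the members (0.30) and the cytoplasmic actomyosin genes (0.21) lie to the right of 0. So does that of the other smooth muscle contractile and SRF target genes (0.18). The median of the SRF cofactors lies at -0.08, and Tnnt2 stands apart at 2.25.

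Markers of other cell types were examined beside these results. All 6 endothelial markers were at 0 to 5 counts in every library, and their summed level was 0.159 to 0.475 CPM in the control group and 0.387 to 0.556 CPM in the IL-12 group. Among 10 mesangial, pericyte and vascular smooth muscle markers, Rgs5, Kcnj8, Abcc9 and Ren1 were at 0 counts in every library and 3 passed the filter, of which Pdgfrb was higher and Notch3 and Mcam were lower. The summed level of the 10 markers was 108 to 109 CPM in the control group and 96.1 to 102 CPM in the IL-12 group. Its part in the results was not tested. Of 7 fibroblast markers, Lum, Thy1 and Dpt were at 0 counts, and Col1a1 alone passed the filter and was higher. The summed fibroblast level was 8.58 to 10.8 CPM in the control group and 15.4 to 15.97 CPM in the IL-12 group, and its part in the results was not tested. The 6 leukocyte markers summed to 5.055 to 7.30 CPM over the 4 libraries. The sum of the 7 tubule markers rested on Lrp2 and was 635 to 661 CPM against 519 to 560.2 CPM.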

How the data were processed

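RNA-sequencing of 2 IL-12 and 2 control libraries of mouse podocytes was used, grouped by the sample labels. The deposited table of the authors holds unnormalized counts and FPKM values, which equal the counts divided by deposited gene length and library total, multiplied by a constant per library (0.985, 0.989, 1.02 and 1.02). The submitters' processing notes name HISAT2, StringTie and the build mm9, with no versions. The deposited coordinates, however, equal those of GENCODE M21 (GRCm38) for 98.3% of 54495 genes, and GRCm38 is used here. The counting program, its use of strand and its treatment of shared reads are not given in the sources used here. The 50-base stretches were compared over all GENCODE M21 transcripts on both strands. Promoter windows were those of RefSeq, GRCm38.p6, of which the 250 bases before the start were searched.

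The software was edgeR 4.0.16, DESeq2 1.42.0 and limma 3.58.1 under R 4.3.3, with matplotlib 3.10.9 under Python 3.11.15 for the figures. Genes were kept by filterByExpr (minimum count 10, total 15), which left 14095 genes, scaled by TMM and tested by edgeR's quasi-likelihood test without a replicate block, with Benjamini-Hochberg adjustment over all genes tested. The standard error (SE) was taken as the absolute log2 fold change over the root of F. All CPM given are TMM-scaled, except the floor of 3 counts, which is relative to total counts. Replicate libraries were not copies of each other (chi-square per degree of freedom 2.13 and 2.42), and each was counted as a replicate. The tests were also run on simulated counts, with the spread taken from these same libraries and changes placed only in genes above a count limit. Such counts cannot show whether the replicates are technical.

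The members and lists were chosen with earlier results of these data known. The named genes are all members, from each list the 3 largest changes past the adjusted p at 1 CPM or more and any past 2-fold, and a fixed set of smooth muscle markers, coactivators and paralogs. Cell type markers came from fixed lists. A further list and 1 marker are not reported here. Myh10, Tnnc1, Tnni3, Tagln2, Myl12a and Myl12b are outside this rule and were named after their values were seen. Alternatives were scaling by total counts, by upper quartiles or by DESeq2 size factors, no filter or at least 10 counts in every library, the DESeq2 Wald test, limma voom, the replicate number as a block, and each library left out in turn.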

Additional observations from a re-analysis of the deposited data

How the results depend on the processing

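Cnn2, Srf, Tpm1 and Tpm4 kept their direction and their call in 12 of 12 alternatives, with log2 fold changes of 0.31 to 0.38, 0.28 to 0.35, 0.27 to 0.32 and 0.26 to 0.33. The number of members higher was 4 with the DESeq2 Wald test and with total counts only, and 4 to 6 with a library left out. For all genes, the DESeq2 Wald test gave 1492 higher and 1213 lower, and 64 and 39 past 2-fold, where its independent filtering left 11908 genes with an adjusted p. With a library left out, the counts were 1404 to 2010 higher and 1124 to 1712 lower, 82 to 131 and 62 to 123 past 2-fold, where the lone library of a group is assumed to vary like the other group. The lowest counts of genes higher and lower were those without IL-12 replicate 1. For all related lists together, 11 genes were lower, against 7 with the DESeq2 Wald test and 6 to 10 with a library left out, and 1 to 2 were higher past 2-fold with a library left out, Fosl1 being the added gene. Myl9 changed sign with limma voom (0.0063), without control replicate 2 (0.49) and without IL-12 replicate 2 (0.00062), and ranged from -0.47 to 0.49 with a library left out. Des changed sign at values near 0 without control replicate 2 (0.0025) and without IL-12 replicate 1 (0.10), with a range of -0.10 to 0.10, and so did Myl12b without control replicate 1 (0.067) and without IL-12 replicate 2 (0.025), with a range of -0.11 to 0.067. The cause was not tested. The sources used here do not say whether same-numbered libraries shared a culture or batch. The correlation of their deviations across genes was -0.0267, a single value that cannot decide this. With the replicate block, 6 members were higher, as without it, but they were not the same genes: Tagln passed (log2 fold change 0.43, adjusted p = 0.014) and Cald1 did not (0.07, adjusted p = 0.081), both from edgeR's quasi-likelihood test. With the block 2272 genes were higher and 2069 lower. Shares within families depend on the gene length used: with the longest transcript, a setting chosen after seeing the data, the control share of Acta2 was 3.02% in place of 4.67%, that of Cnn2 33.9% in place of 41.1% and that of Myl9 0.905% in place of 1.49%. Tpm2, Cnn1, Myl9 and Tagln had few counts, and Tpm2 was not tested. The SE was 0.25 for Cnn1, 0.34 for Myl9 and 0.19 for Tagln. The log2 fold changes of Cnn2, Srf, Tpm1 and Tpm4 were 0.30 to 0.35. The smallest change detectable in the scarce genes was not computed.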
